A study of Mus musculus with 3 samples.

Results

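The kinases that feed into and out of p38 were read by 23 probes on each of 3 Agilent whole-genome arrays of mouse LT-HSCs, the long-term hematopoietic stem cells of the bone marrow. The set held 10 genes. Map3k5, Map2k3, Map2k6 and Map2k4 are activating kinases, Tab1 encodes an adaptor, Mapkapk2, Mapkapk3, Mapkapk5 and Rps6ka5 are kinases that p38 phosphorylates, and Atf2 encodes a transcription factor that p38 phosphorylates. Every probe whose gene name in the files was one of these was kept, and the p38 genes themselves were not members. The members were 10 of 37323 genes and 23 of 56605 probes. Of their probes, 21 were well above background on all 3 arrays, and each of the 10 genes had at least 1 such probe.

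p38 is a stress-activated MAP kinase at the bottom of a chain of 3 kinases. A MAP kinase kinase kinase such as ASK1, the product of Map3k5, phosphorylates a MAP kinase kinase, which phosphorylates p38 on its activation loop, while TAB1 can bind p38α and promote its autophosphorylation. Active p38 then phosphorylates the kinases MK2, MK3, PRAK and MSK1 and factors such as ATF2, and in HSCs the pathway is known for its link to oxidative stress and the loss of repopulating capacity.

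All mice were C57BL/6J and, by the sample labels, 11 weeks old. AtmsKO mice carried CAG-CreERT2, a tamoxifen-inducible Cre, and floxed Atm, the gene of the kinase that signals DNA breaks. Atmp38dKO mice carried the same Cre with floxed Atm and floxed p38α (gene Mapk14). WT mice were controls, which per the methods were floxed, lacked the Cre and were given tamoxifen too, so only the other groups ever held active Cre. The CAG promoter drives Cre in most cell types, so deletion was not limited to blood cells. Tamoxifen was given at about 5 weeks of age and analysis followed 4 weeks later by the series text, which does not add up to the labelled age. The cells were CD150+CD48-Flt3-CD34- LSK by the labels. The number of mice pooled for an array is not stated. Each group held 1 array, so no value has an error between mice, no test was possible, and every difference given here is one between arrays.

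Between 68.9% and 77.7% of probes were well above background, and the array labelled Atmp38dKO was the brightest, with a median signal of 26.3 intensity units against 22.4 (WT) and 20.7 (AtmsKO). Differences were therefore taken after scaling each array to its 75th percentile (101.5, 96.2 and 117.8 units for WT, AtmsKO and Atmp38dKO). Probes printed repeatedly varied with a median SD of 0.05 on the log2 scale between spots of an array, which leaves out labelling and mice. At its probes Atm differed from WT by -2.37 and -1.79 (log2) on the AtmsKO array, but by -1.07 and -0.22 on the array labelled Atmp38dKO. Mapk14 was not lower there at either probe, with log2 differences of 0.18 and 0.01 from WT. Whether those probes lie in a deleted exon is not known here, so the array is called by its label throughout. All 12 HSC markers looked at were well above background on every array. After scaling, 8 of them were higher on AtmsKO than on WT, but 2 of 12 were higher on Atmp38dKO than on WT, where Fgd5 differed by -1.72 and Hoxb5 by -1.64 (log2). Of the markers sorted against, Cd34 was bright (1694, 1666 and 2185 units on WT, AtmsKO and Atmp38dKO) and Cd48 dim (17.2, 21.2 and 34.0). Flt3 gave 79.4, 70.3 and 100.8. After scaling, all 3 were higher on Atmp38dKO than on WT, by 0.15 (Cd34), 0.77 (Cd48) and 0.13 (Flt3) on the log2 scale. All 3 were also higher there than on AtmsKO. Summed signals of other cell types' markers were divided by the array's 75th percentile. The sum of 5 granulocyte markers was 23.1, 27.5 and 28.0 on WT, AtmsKO and Atmp38dKO, with 5 markers above WT on AtmsKO, 4 on Atmp38dKO, and 1 higher on Atmp38dKO than on AtmsKO. The sum of 4 erythroid markers was 1.55, 1.98 and 2.12, with 3 and 4 above WT. The B cell and T cell sums lay between 5.26 and 6.53 on all 3 arrays. The megakaryocyte sum (16.3, 30.4 and 19.0) was carried by Pf4, which was 1.29 above WT (log2) on AtmsKO, with 2 of 4 markers above WT on each array. The sum of 4 macrophage markers, mostly Itgam, was 353.0, 359.8 and 310.0, with 2 above WT on AtmsKO and 0 on Atmp38dKO. The mast cell sum was 0.34, 0.30 and 0.33. The sum of 3 endothelial markers was 1.41, 2.15 and 1.22. It was carried on AtmsKO by Kdr, 4.355 above WT (log2), where the WT signal of 5.88 units was near the background limit. Pecam1 differed from WT by -0.48 on AtmsKO, and Cdh5 was well above background on 0 arrays. The part of all these markers in the results below was not tested. In such bulk RNA, fewer cells of a type and less RNA per cell cannot be told apart.

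The probes are 60 bases long. Of the 23, 18 matched a RefSeq mRNA and 5 matched only other transcripts annotated to the gene, and 2 probes crossed an intron. In the values that follow, signals are processed intensities on the WT, AtmsKO and Atmp38dKO arrays in that order, and differences are on the log2 scale after scaling. Signals of different probes depend on the probe and were not ranked against each other as levels of expression. Coordinates are on mm9. Those shown here carry results given below. Each differed from another probe of its gene. Capitals mark the codons of the AVK motif that holds the ATP-binding lysine (Map2k4), and those of the DFG motif that opens the activation segment of a kinase (Mapkapk3, Rps6ka5). The Map3k5 probe holds neither motif and has no capitals.
Map2k4, chr11:65533101-65548748, minus strand, across an intron: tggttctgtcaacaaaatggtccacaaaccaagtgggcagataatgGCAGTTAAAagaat
Map3k5, chr10:19860474-19861330, plus strand, across an intron: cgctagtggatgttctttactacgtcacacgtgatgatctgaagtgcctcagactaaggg
Mapkapk3, chr9:107162410-107162469, minus strand: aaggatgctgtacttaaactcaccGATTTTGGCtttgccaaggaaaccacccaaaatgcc
Rps6ka5, chr12:101854209-101854268, minus strand: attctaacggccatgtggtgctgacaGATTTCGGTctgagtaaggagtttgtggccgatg

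Map3k5 held the widest difference among the members' brightest probes. ASK1, its product, is the redox-sensitive kinase held inactive by thioredoxin. At the probe printed above, the signal was 108.1 on WT, 21.3 on AtmsKO and 69.1 on Atmp38dKO. This was 4.81-fold lower on AtmsKO than on WT (log2 difference -2.27), 1.82-fold lower on Atmp38dKO than on WT, and 2.65-fold higher on Atmp38dKO than on AtmsKO. The other Map3k5 probe, at chr10:19861684-19861743 and 1210 bases further along, gave 38.4, 35.1 and 44.5, with log2 differences of -0.05 and -0.00 from WT. The AtmsKO array was thus low at 1 probe of the gene and level with WT at the other. With normexp background correction the differences at the first probe were -1.07 (AtmsKO against WT) and 0.48 (Atmp38dKO against AtmsKO), so the second was no longer 2-fold. Averaged over both probes it was 0.73.

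Map2k3 encodes MKK3, a MAP kinase kinase dedicated to p38. Its brightest probe (chr11:60766210-60766269) gave 1091, 1364 and 1332, a log2 difference from WT of 0.40 on AtmsKO and 0.07 on Atmp38dKO. The next, at chr11:60760737-60760796 on a transcript other than the RefSeq mRNA, gave 303, 147 and 215, with differences of -0.97 and -0.71. WT was the lowest array at the first probe and the highest at the second. The dimmer probes at chr11:60765712-60765771 and chr11:60764453-60764512 lay between 27.6 and 48.7 units, and their differences from WT ran from -0.59 to 0.20.

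Map2k6 encodes MKK6, the other kinase dedicated to p38. Its RefSeq probe (chr11:110374876-110374935) gave 69.4, 71.9 and 140.1, so the array labelled Atmp38dKO stood 1.74-fold above WT and 1.59-fold above AtmsKO while AtmsKO differed from WT by 0.13. Its other probe (chr11:110386219-110386278, another transcript) was dim and went the other way. WT gave 12.0 there and Atmp38dKO 5.3, which was 2.62-fold lower. AtmsKO gave 4.1, not well above background and at least 1.86-fold below WT. Averaging both probes turned the direction of the Atmp38dKO difference from WT, from 0.80 to -0.29.

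Map2k4 encodes MKK4, which activates JNK and also p38. The probe at chr11:65501987-65502046 gave 63.8, 61.6 and 84.7, with log2 differences of 0.03 and 0.19 from WT. The intron-crossing probe over the ATP-binding motif gave 43.4, 21.8 and 23.9. There both other arrays were below WT, with differences of -0.92 (AtmsKO) and -1.08 (Atmp38dKO). Map2k4 therefore had 1 probe level with WT and 1 lower on both other arrays.

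Tab1, read by 1 probe (chr15:79992039-79992098), gave 77.2, 43.1 and 45.1. Both other arrays were below WT, by 1.70-fold (AtmsKO) and 1.99-fold (Atmp38dKO), and they differed from each other by -0.23 on the log2 scale. The Atmp38dKO difference of -0.99 lay at the edge of a 2-fold change. With normexp background correction the differences from WT were smaller, at -0.33 (AtmsKO) and -0.49 (Atmp38dKO).

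**Figure D1:**
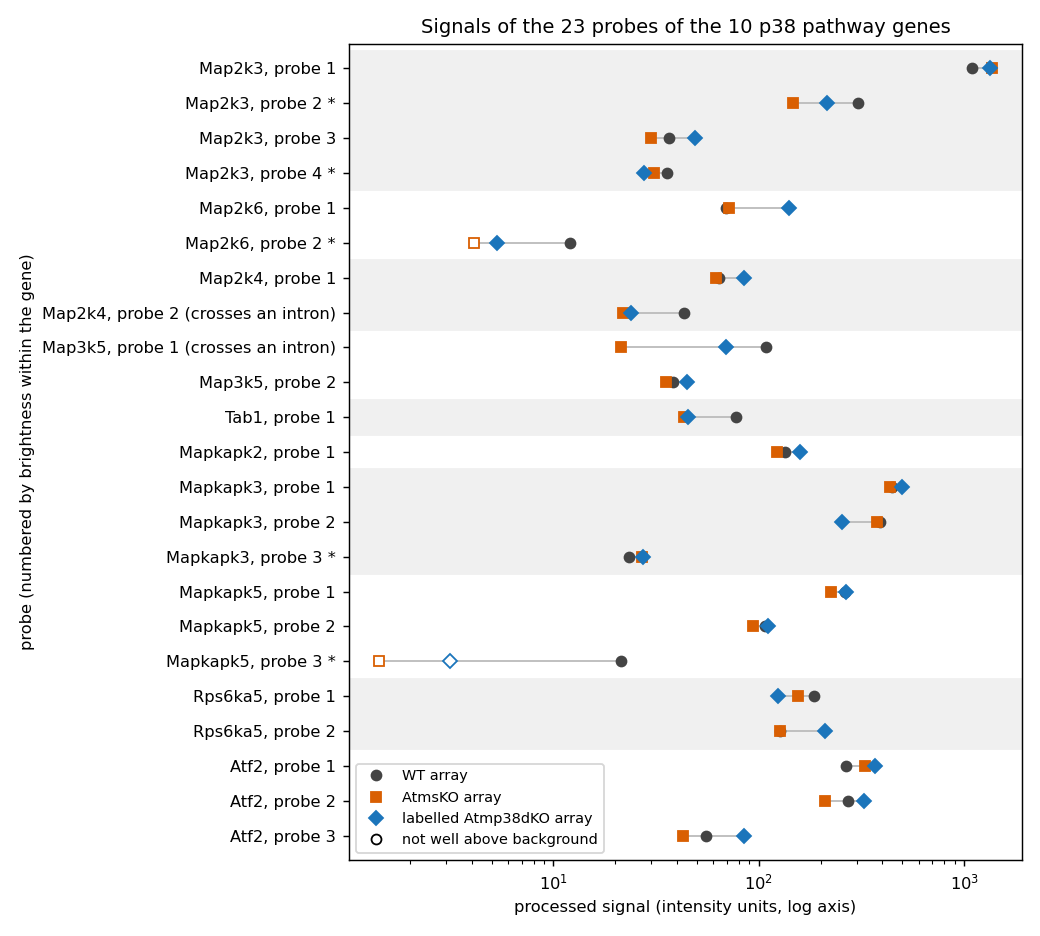
Processed signal (horizontal, intensity units on a log axis, before scaling between arrays) of each of the 23 probes (rows, grouped by gene and numbered by brightness, an asterisk marking transcripts other than a RefSeq mRNA) on the WT, AtmsKO and Atmp38dKO arrays, open symbols being not well above background. The 3 arrays lie close together at most probes, with wide gaps at Map3k5 probe 1 (108.1, 21.3 and 69.1) and Mapkapk5 probe 3.

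Mapkapk2, Mapkapk3 and Mapkapk5 differed from WT by less than 0.20 on the log2 scale at their brightest probes, whereas Rps6ka5 differed by -0.79 on Atmp38dKO. MK2, the product of Mapkapk2, controls the stability of AU-rich mRNAs and is the best known p38 substrate. Its 1 probe (chr1:132950292-132950351) gave 134.5, 122.4 and 159.6, and the log2 differences from WT were -0.06 and 0.03. No difference between arrays exceeded 0.09.

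Mapkapk3 encodes MK3, a close relative of MK2. Its brightest probe (chr9:107157285-107157344) gave 444, 437 and 496, with differences of 0.06 and -0.05 from WT. The probe over the DFG motif gave 390, 376 and 253. There the array labelled Atmp38dKO alone was low, by 1.79-fold against WT and 1.82-fold against AtmsKO. The third probe (chr9:107187130-107187189, another transcript) gave 23.3, 27.0 and 27.2.

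Mapkapk5 encodes PRAK, a kinase activated by p38 and by the atypical kinase ERK3. Its RefSeq probes agreed closely. The brighter one (chr5:121976770-121976829) gave 263, 226 and 267, and the one at chr5:121975673-121975732 gave 108, 93.2 and 111. Log2 differences from WT were -0.14 and -0.13 on AtmsKO and -0.19 and -0.17 on Atmp38dKO. A probe to another Mapkapk5 transcript (chr5:121983170-121983229) was well above background on WT alone, at 21.3, and gave 1.4 and 3.1 on the other arrays, at least 3.30-fold and at least 4.97-fold lower.

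Rps6ka5 encodes MSK1, a nuclear kinase with tandem kinase domains that phosphorylates histone H3 and CREB. Its brightest probe (chr12:101788005-101788064) gave 186, 155 and 125, and Atmp38dKO was 1.73-fold below WT. The probe over the DFG motif, 66204 bases away, gave 127, 126 and 209, and Atmp38dKO was 1.43-fold above WT. Differences of AtmsKO from WT were small, -0.18 and 0.08. Atmp38dKO was thus the lowest array at 1 probe of this gene and the highest at the other.

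Atf2 was read by 3 probes, all on its mRNA. They gave 266, 329 and 368 (chr2:73654638-73654697), then 272, 209 and 324 (chr2:73684290-73684349), and 55.2, 42.7 and 84.7 (chr2:73666533-73666592). Differences of Atmp38dKO from WT were above 0 at all 3 probes, at 0.26, 0.04 and 0.40. Those of AtmsKO from WT were 0.38, -0.30 and -0.29, so the brightest probe differed in sign from the others.

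**Figure D2:**
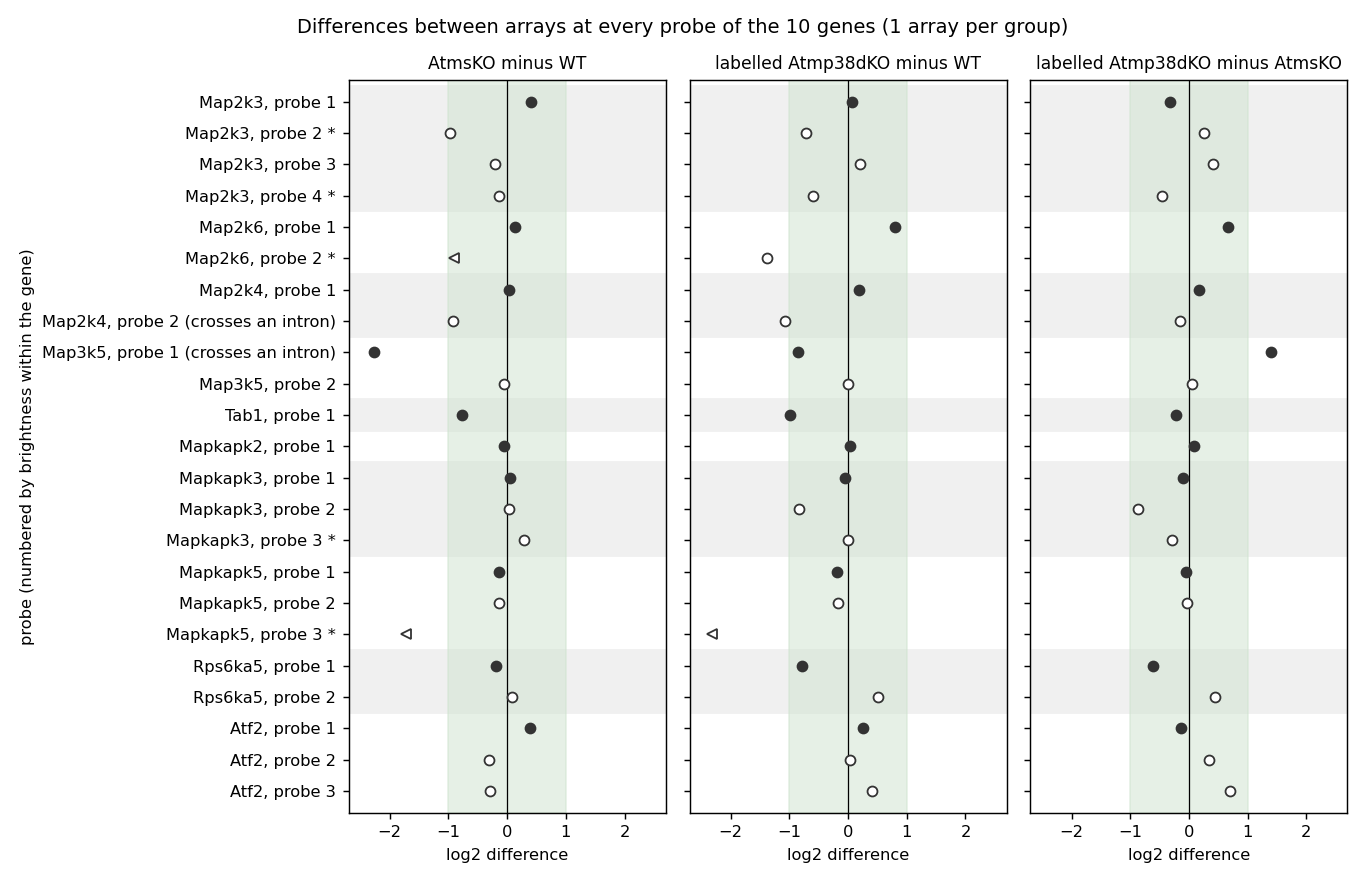
Log2 difference (horizontal) between arrays at each of the 23 probes (rows), for AtmsKO minus WT, Atmp38dKO minus WT and Atmp38dKO minus AtmsKO, with the brightest probe of a gene filled, triangles marking lower bounds and the shaded band marking differences under 2-fold. Most points fall in the band, and the points of a gene often lie on both sides of 0.

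A gene was counted as different if its brightest probe differed at least 2-fold and the brighter of the signals was well above background. For AtmsKO against WT, 0 members were higher and 1, Map3k5, was lower, where 7.89% of the 29044 genes tested were past 2-fold (3.86% higher and 4.04% lower). For Atmp38dKO against WT, 0 of 10 members were past 2-fold, against 8.44% of 30670 genes (3.98% higher and 4.46% lower). For Atmp38dKO against AtmsKO, 1 was higher, again Map3k5, and 0 were lower, against 7.36% of 30218 genes (3.72% higher and 3.64% lower). Shares of 0 and 1 in 10 are near these backgrounds. The first 2 comparisons share the WT array, and the values of each gene are given side by side above for that reason. The members' median log2 differences were -0.02, -0.01 and -0.08 in the same order of comparisons, beside 0.01, 0.02 and -0.00 over all genes tested.

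The share of genes past 2-fold depended on signal, and dim genes differed more often. Among genes of mean signal 20 to 100 it was 10.7%, 10.1% and 9.48% for the 3 comparisons, and among genes of 500 or more it was 0.324%, 0.788% and 0.556%. Set beside genes of like signal, 8, 8 and 9 of the 10 members lay between the 5th and 95th percentiles of the difference. Outside were Map2k3 (0.40, 95th percentile 0.37) and Map3k5 (-2.27, 5th percentile -0.84) for AtmsKO against WT. For Atmp38dKO against WT they were Map3k5 (-0.86, 5th percentile -0.84) and Rps6ka5 (-0.79, 5th percentile -0.70), and for Atmp38dKO against AtmsKO it was Map3k5 (1.41, 95th percentile 0.80).

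**Figure D3:**
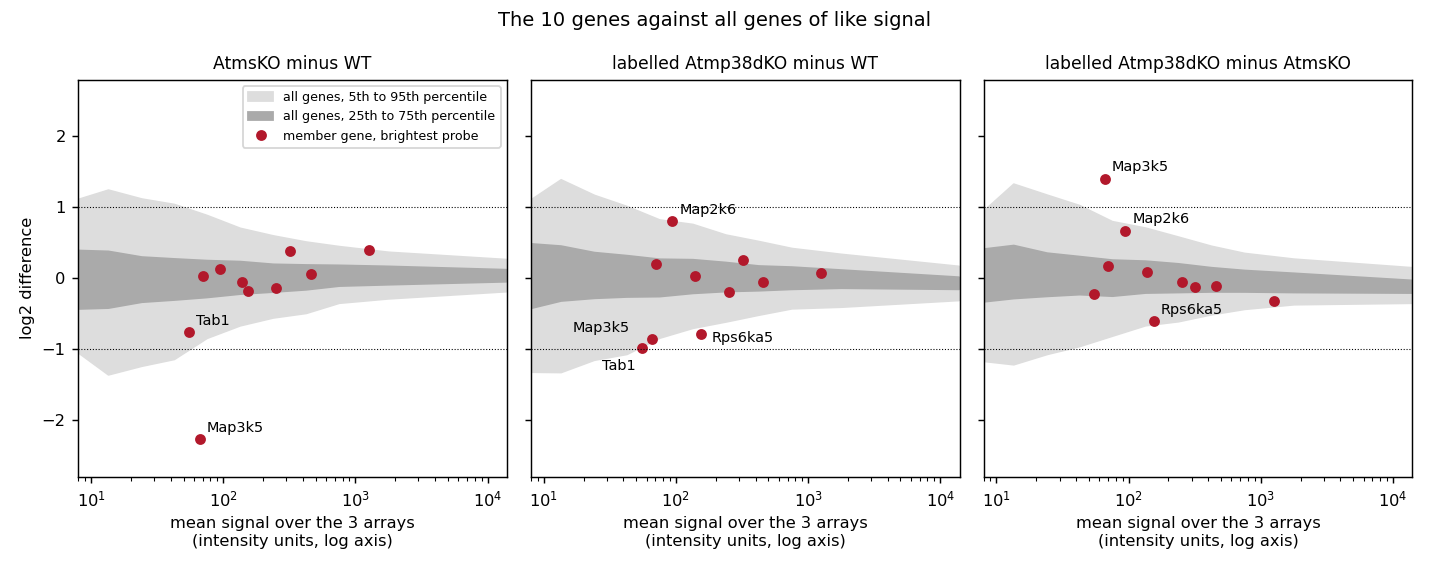
Log2 difference (vertical) against mean signal over the 3 arrays (horizontal, intensity units, log axis) for the 10 genes at their brightest probe, over bands that hold the middle of all genes of like signal, with dotted lines at 2-fold. The outer band runs from the 5th to the 95th percentile, and Map3k5 lies farthest outside it, at -2.27 for AtmsKO minus WT and 1.41 for Atmp38dKO minus AtmsKO.

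Probes of the same member gene often disagreed. Such probes share the RNA and are not replicates, but they show how far a value rests on the probe. Only probes well above background on both arrays were compared. Of these, 4 of 11 other probes of the members had the sign of the gene's brightest probe for AtmsKO against WT. For Atmp38dKO against WT it was 6 of 12, and for Atmp38dKO against AtmsKO 5 of 11. Over all genes the shares were 53.0%, 53.6% and 54.4%. Within a gene the difference ranged over at least 2-fold between probes for 2 of 7, 3 of 8 and 2 of 7 members with more than 1 such probe, beside 22.2%, 23.7% and 20.6% of all such genes. The ranges were widest for Map3k5 (2.21 on the log2 scale, AtmsKO against WT) and Map2k6 (2.19, Atmp38dKO against WT), and narrowest for Mapkapk5 (0.01, 0.02 and 0.01). The Map2k6 range rests on its dim probe, which at 5.3 units on Atmp38dKO was near the background limit.

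Taking every member probe by itself, 2 (Map3k5 and Mapkapk5) were at least 2-fold lower and 0 higher for AtmsKO against WT, where 9.03% of all probes were past 2-fold (4.29% higher and 4.74% lower). For Atmp38dKO against WT, 3 were lower (Map2k6, Map2k4 and Mapkapk5) and 0 higher, against 9.76% (4.69% higher and 5.07% lower). For Atmp38dKO against AtmsKO, 1 was higher and 0 lower, against 8.46% (4.39% higher and 4.07% lower). By kind of transcript, 7 of the 18 RefSeq probes and 4 of the 5 others were below WT on both other arrays. Over all probes well above background on WT, 34.7% of RefSeq probes and 35.5% of the others were. The 4 were the Map2k3 probes at chr11:60760737 and chr11:60764453 and the dim probes of Map2k6 and Mapkapk5.

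The rest of the pathway was read from 4 lists by the brightest probe. Of 27 upstream kinases and adaptors, 0 were past 2-fold for AtmsKO against WT (7.89% of all genes). For Atmp38dKO against WT, 3 were lower and 0 higher (background 4.46% and 3.98%). Map3k2, a kinase of the MEKK family, gave 101.3, 62.4 and 54.7 (difference -1.10), but 0.06 at its other probe. Map3k8, which encodes TPL2, gave 40.4, 28.6 and 12.8 (-1.87), and its other probe, dim on WT, went the other way. Spag9, which encodes the scaffold JIP4, gave 124, 109 and 71.3 (-1.02), while its other 4 probes lay between -0.24 and 0.22. For Atmp38dKO against AtmsKO, 1 was lower and 1 higher (background 3.64% and 3.72%). Map3k8, whose brightest probe lay on a transcript other than the RefSeq mRNA, was lower (-1.45), but 0.22 at its RefSeq probe. Mapk8ip2, a scaffold gene, was higher (27.7, 23.5 and 62.5 units, difference 1.12). Its other probe, not well above background on AtmsKO, was at least 0.48 higher there but -0.22 against WT. The list's medians were 0.03, -0.01 and -0.14. The list's genes of highest probe signal were within 2-fold of WT. Txn1, whose product thioredoxin holds ASK1 inactive, gave 5558, 6156 and 6534 (0.22 and 0.02), Tab2 gave 1600, 1835 and 1363 (0.27 and -0.45), and Taok3 gave 709, 669 and 851 (-0.01 and 0.05).

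Of 11 phosphatases that act on p38, 0 were past 2-fold in any comparison, where 7.89%, 8.44% and 7.36% of all genes were. A count of 0 in 11 is near these shares. The medians were -0.08, -0.13 and -0.02. Dusp1, the early-response phosphatase of p38 and JNK, gave 3977, 3485 and 2979 (differences from WT of -0.11 and -0.63), and Dusp10 gave 1061, 679 and 823 (-0.57 and -0.58). Ppp2ca, the catalytic subunit of PP2A, gave 1577, 1551 and 1538 (0.05 and -0.25).

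Of 32 downstream kinases and substrates, 31 were well above background, and 3, each read by 1 probe, were past 2-fold in some comparison. By comparison these were 2 (1 higher and 1 lower), 2 (lower) and 3 (lower) of 31, against 7.89%, 8.44% and 7.36% of all genes. Hspb1, the small heat shock protein phosphorylated by MK2, gave 320.3, 145.9 and 50.2. Its log2 difference from WT was -1.06 on AtmsKO and -2.89 on Atmp38dKO, and the 3 arrays stood well apart. With normexp these were -0.84, under 2-fold, and -1.92. Zfp36, which encodes the mRNA-destabilizing MK2 substrate tristetraprolin, gave 12556, 12847 and 6698, so the array labelled Atmp38dKO alone was low (2.18-fold against WT and 2.35-fold against AtmsKO). Cdc25c, a cell cycle phosphatase, gave 24.4, 97.4 and 53.9 and was 4.22-fold higher on AtmsKO than on WT. The list's medians were 0.02, -0.07 and -0.08. Its genes of highest probe signal besides Zfp36 were Elk1, a ternary complex factor, and Hmgn1, a nucleosome-binding protein that MSK1 phosphorylates. Elk1 differed from WT by 0.02 and -0.10, and Hmgn1 by 0.08 and -0.09.

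**Figure D4:**
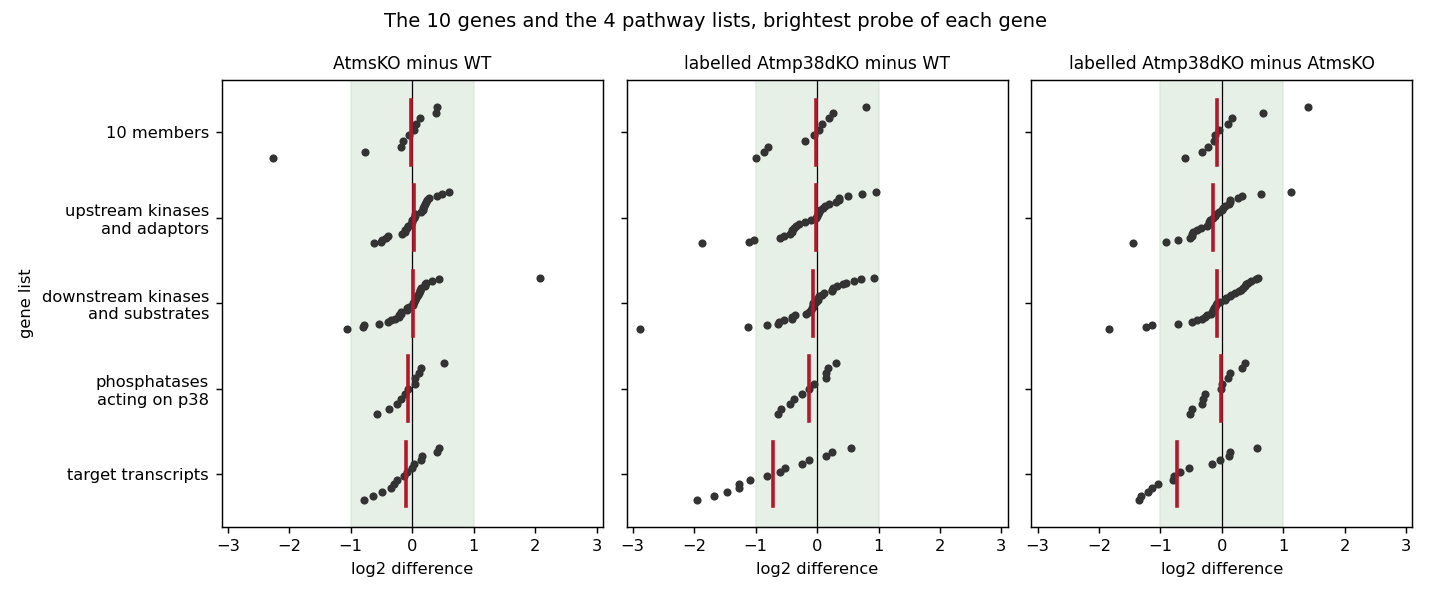
Log2 difference (horizontal) of each gene of the 10 members and of the 4 pathway lists (rows) at its brightest probe, for AtmsKO minus WT, Atmp38dKO minus WT and Atmp38dKO minus AtmsKO, with the list's median as a red bar and differences under 2-fold shaded. The medians lie near 0 except that of the target transcripts, at -0.71 and -0.73 in the comparisons of the Atmp38dKO array.

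The list of transcripts known as targets of MSK, ATF2 or MK2 stood lower on the array labelled Atmp38dKO. The list was chosen with earlier results of these data known, so its shares here and below describe it and are not a test. Of 16 genes, 14 were well above background. Il6 and Cxcl1, cytokine genes with AU-rich mRNAs, were not well above background on any array. For Atmp38dKO against WT, 6 of 14 (42.9%) were at least 2-fold lower and 0 higher, where 4.46% of all genes were lower, and the median was -0.71. For Atmp38dKO against AtmsKO, 5 of 14 (35.7%) were lower and 0 higher, where 3.64% of all genes were lower, and the median was -0.73. For AtmsKO against WT, 0 were past 2-fold in either direction, 9 were below and 5 above WT, and the median was -0.11. Of all 29044 genes tested there, 14243 were below and 14801 above WT.

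Several of the 6 genes at least 2-fold below WT are known as early-response genes. Each of the 6 was read by 1 probe, so no other probe of the gene could be set beside it. No detected target gene with more than 1 probe was past 2-fold at its brightest probe in any comparison. Jun, an AP-1 subunit, gave 3652, 2740 and 1318, a 3.21-fold lower level on Atmp38dKO than on WT. Egr1, a zinc finger factor, gave 25186, 20033 and 10604 (2.76-fold). Atf3, a stress-induced factor of the ATF family, gave 440, 267 and 131 (3.89-fold). For each of the 3 genes Atmp38dKO was the lowest array, AtmsKO lay between, and the step from AtmsKO to Atmp38dKO was also over 2-fold (-1.35, -1.21 and -1.32 on the log2 scale), although with normexp it was -0.96 for Atf3.

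Nr4a1, an orphan nuclear receptor, gave 3551, 3062 and 1702 (2.42-fold below WT), Fos, the AP-1 partner of Jun, gave 3323, 2559 and 1801 (2.14-fold), and Ier3 gave 824, 557 and 398 (2.40-fold). Ptgs2, which encodes cyclooxygenase-2 and was also read by 1 probe, was past 2-fold against AtmsKO only, with 44.6, 57.4 and 34.0. Junb, also an AP-1 subunit, gave 22205, 19933 and 21833 at its brightest probe (-0.08 and -0.24 against WT). Averaged over its 3 probes the differences from WT were -0.05 on AtmsKO and -0.47 on Atmp38dKO. In all, 11 of the 14 were below WT on Atmp38dKO and 3 above. Of all 30670 genes tested, 14670 were below and 16000 above WT on that array. Of the 7 target transcripts of mean signal 500 or more, 5 were at least 2-fold below WT on Atmp38dKO, where 23 of 4317 genes of such signal (0.533%) were. On the same array 10 of 12 HSC markers and 4 of 4 macrophage markers were below WT, and 4 of 4 erythroid markers above it. The part of any of these markers in the target values was not tested.

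**Figure D5:**
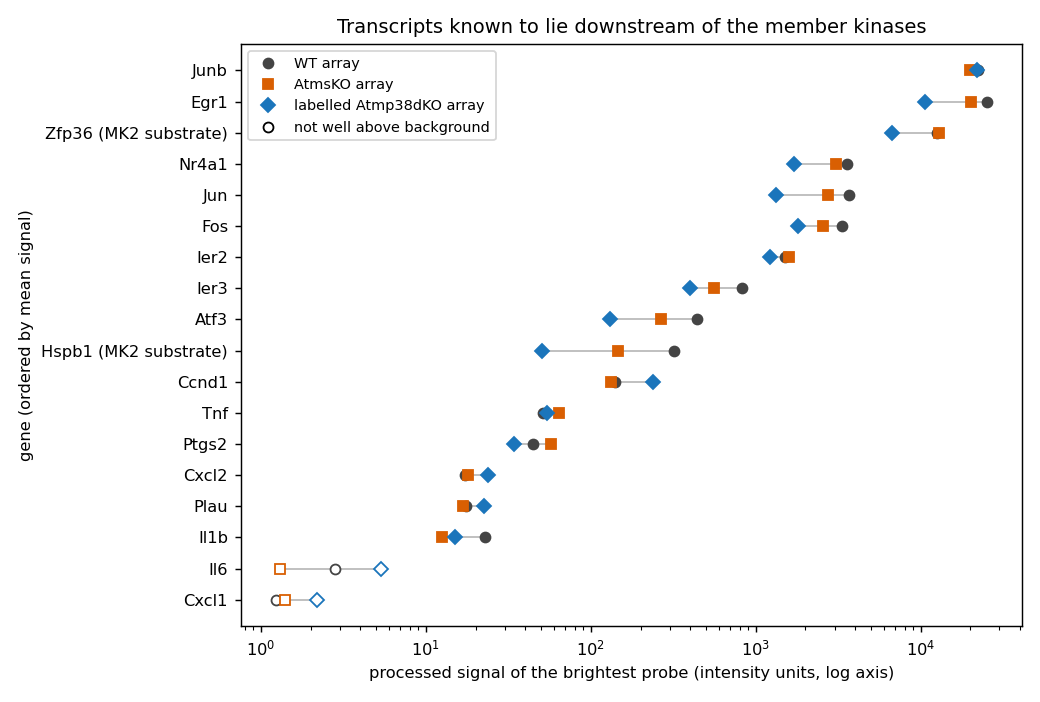
Processed signal (horizontal, intensity units on a log axis, before scaling between arrays) of the 16 target transcripts and the MK2 substrates Hspb1 and Zfp36 (rows, by mean signal) on the WT, AtmsKO and Atmp38dKO arrays, open symbols being not well above background. Each gene is shown by its brightest probe. At Egr1, Zfp36, Nr4a1, Jun, Fos, Ier3, Atf3 and Hspb1 the Atmp38dKO array is the lowest of the 3, whereas at this probe of Junb the arrays nearly coincide.

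Promoters of the list were searched because ATF2 and CREB bind the cAMP response element. The window was 250 bases before to 50 after the RefSeq start (GRCm38.p6), both strands were searched, and 12 of the 16 genes had an entry. List genes were counted once if any of their promoters matched, whereas the shares of all are over promoters. The full element TGACGTCA was in 0 of the 12 and in 1.79% of 32851 promoters. The variant TGACATCA, known from the Jun promoter, was in 1 of the 12, Jun itself, and in 3.62% of all. The half-site TGACG, which is also the first part of the full element, was in 7 of the 12 (Atf3, Cxcl1, Fos, Il6, Junb, Nr4a1 and Ptgs2) and in 20.8% of all. By the brightest probe, genes that were lower on Atmp38dKO and genes that were level or dim were both among the 7. The stretch from 80 to 21 bases before the start is shown for the 3 genes with a match there, with the match in capitals (CGTCA is the half-site on the opposite strand).
Jun, chr4:95052243-95052302, minus strand: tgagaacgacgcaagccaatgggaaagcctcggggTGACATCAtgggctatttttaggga
Fos, chr12:85473810-85473869, plus strand: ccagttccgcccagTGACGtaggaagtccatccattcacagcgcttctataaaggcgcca
Nr4a1, chr15:101266766-101266825, plus strand: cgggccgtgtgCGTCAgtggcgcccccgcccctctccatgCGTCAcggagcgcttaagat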

How the data were processed

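RNA of sorted LT-HSCs was hybridized to 1 single-colour Agilent array per genotype, and groups were taken from the genotype in the sample labels. Per the file headers and labels, the authors' contractor extracted the deposited processed intensity of each spot with Agilent Feature Extraction 11.5.1.1, background-subtracted but not scaled between arrays. A log2 table deposited by the authors equaled log2 of the processed intensity minus the array's 75th percentile within 0.02 for at least 99.6% of probes, and served as an alternative.

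Control and outlier spots (57, 75 and 83 on WT, AtmsKO and Atmp38dKO) were left out, repeated spots averaged, and log2 intensity minus each array's 75th percentile taken as the measure. A probe was well above background if over 50% of its spots were. Values below were raised to the array's lowest signal that was well above background (5.33, 6.12 and 4.97 units), unless the probe's own was higher, and the folds they give are bounds. The probe of highest mean signal stood for a gene. Names came from RefSeq accessions (assembly GRCm38.p6) for 32994 probes and otherwise from the files, promoter sequences from RefSeq (GRCm38.p6), and probe sequences from the array files. In 1 list, Zak was matched as Map3k20.

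The members and lists were chosen with earlier results of these data known. Genes named beyond the members are those of each list past 2-fold in any comparison and the 3 of highest mean signal. Il6, Cxcl1, the markers and the genes with promoter matches were named after their values were seen. The arrays shared 1 slide and 1 scan, so no batch could be compared. With 1 array per group no test was made, and precision is limited by the number of arrays. Python 3.11.15 with pandas 2.3.3, and limma 3.58.1 for normexp correction (offset 50), were used. The functions were tested on simulated data.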

Additional observations from a re-analysis of the deposited data

How the results depend on the processing

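Each count, median and gene difference was recomputed with normexp background correction, quantile normalization, centring on the median of commonly detected probes, the authors' log2 table, no floor, only genes well above background on both arrays, and the mean over a gene's probes, and the counts also at 1.5-fold. No called difference of a member or target transcript changed sign. Of 96 recomputed counts 84 stayed within 1.5 times, and of 42 medians 38 moved by less than 0.0756, the spread expected between repeated spots. These tallies include settings under which no value was free to change. Every member and tested target transcript was well above background on every array at its brightest probe. The values with no floor, and with only genes above background on both arrays, therefore equaled the main ones. The target median for Atmp38dKO against WT was -0.71 with each, and -0.715 with the authors' table, which has the same scaling. Target transcripts 2-fold higher numbered 0 throughout.

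With normexp, the target transcripts' median was -0.37 for Atmp38dKO against WT and -0.54 for Atmp38dKO against AtmsKO, 3 of them instead of 5 were lower in the latter (without Atf3, at -0.96, and Ptgs2, at -0.53), and 0 members instead of 1 were higher, since the Map3k5 difference was 0.48. Zfp36 was then at -0.9996 against WT. Averaging a gene's probes also left 0 members higher in that comparison, and took the members' median to -0.31 (AtmsKO against WT) and -0.29 (Atmp38dKO against WT). Quantile normalization and median centring each brought 1 member, Tab1, to 2-fold lower for Atmp38dKO against WT, at -1.001 and -1.01. With normexp Tab1 moved the other way, to -0.49 for Atmp38dKO against WT and -0.33 for AtmsKO against WT.

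At 1.5-fold, 2 members (Map3k5 and Tab1) were lower for AtmsKO against WT. For Atmp38dKO against WT 1 was higher (Map2k6) and 3 lower (Map3k5, Tab1 and Rps6ka5), and for Atmp38dKO against AtmsKO 2 were higher (Map3k5 and Map2k6) and 1 lower (Rps6ka5). Target transcripts lower at 1.5-fold numbered 2 for AtmsKO against WT, 8 for Atmp38dKO against WT and 8 for Atmp38dKO against AtmsKO. The share of all genes past 1.5-fold was not computed, so whether these 1.5-fold counts exceed it is not known. No paired analysis was possible because there was 1 array for each genotype. Leaving out a replicate was not possible for the same reason. Differences between dim probes rest on few intensity units over background, and no difference can be set against a spread between mice.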
